A study of Mus musculus with 6 samples.

Results

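The 9 genes described here carry the first steps of interferon signalling: Ifnb1, which encodes the ligand interferon β, the receptor genes Ifnar1, Ifnar2, Ifngr1 and Ifngr2, and the 4 Janus kinase genes Jak1, Jak2, Jak3 and Tyk2. They were picked by gene symbol from 46603 gene identifiers, with earlier results of these data known. Their transcripts were counted by poly(A) RNA sequencing in 6 cultures of EGCs, enteric glial cells, which surround the neurons of the gut. The EGCs had been grown from neurospheres, clusters of progenitor cells raised from whole intestine of C57BL/6J embryos at stage E14.5, and were plated in serum until confluent. The 3 control cultures were untreated, and the 3 LPS cultures received lipopolysaccharide, a bacterial cell wall component that binds the receptor TLR4, at 100 ng/ml for 12 h. All cultures were wild type and none of the members was targeted. No sort of the cells before sequencing is described for them, and nothing in the labels says whether the numbered cultures came from separate embryos, so that p-values measure the spread between these cultures only.

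Interferons act through receptors made of a pair of different chains, each of which holds a Janus kinase at its inner end. The receptor for type I interferons, which include interferon β, joins IFNAR1, bound to TYK2, with IFNAR2, bound to JAK1. The receptor for interferon γ joins IFNGR1, bound to JAK1, with IFNGR2, bound to JAK2. Ligand binding brings the kinases together, and the kinases phosphorylate STAT proteins, which enter the nucleus and switch on interferon response genes. JAK3 works with the common γ chain of interleukin receptors and is known mainly from blood cells. In macrophages, LPS itself induces Ifnb1 through TLR4.

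Values are CPM, counts scaled to library size, with correction for composition, as mean ± SD over 3 cultures, and calls were made where the edgeR quasi-likelihood test gave an adjusted p under 0.05. Library totals lay between 18775316 and 23664312 counts. A total of 3 counts, taken as the detection floor, corresponded to 0.124 to 0.167 CPM, and floors and counting intervals cover counting error only. All 8 glial markers, Sox10 among them, were above the floor in every library, and their summed level was 385 to 512 CPM. Of the 8, S100b was called lower with LPS (from 22.2 ± 2.2 to 5.92 ± 3.08 CPM, adjusted p = 0.0238, edgeR), Fabp7 was called higher (from 2.55 ± 0.256 to 6.27 ± 1.05 CPM, adjusted p = 0.0122, edgeR) and 6 were not called. The summed level of 6 mesenchymal markers, carried by collagen genes, was 14780 to 15720 CPM, with Pdgfra (adjusted p = 0.0114, edgeR) and Dcn (0.0118) called higher with LPS and Lum lower without overlap but not called (0.0775). The libraries numbered 3 stood apart, since all 12 macrophage markers were highest in control 3 among the controls and in LPS 3 among the LPS cultures, and their summed level was 3878, 4974 and 11590 CPM in controls 1, 2 and 3 and 4025, 5230 and 19240 CPM in LPS 1, 2 and 3. With LPS, the summed level of 6 smooth muscle markers was lower, at 634 to 900 CPM against 2266 to 2492 CPM. The sum of 5 mesothelial markers was also lower, at 34.6 to 56.4 CPM against 63.2 to 95.4 CPM. Among these, Lrrn4 was called lower (adjusted p = 0.0186, edgeR), and Wt1 was lower without overlap but not called (0.0638). Msln, Upk3b and Krt19 overlapped between the groups, and the mean of Krt19 was higher with LPS (2.67 against 1.88 CPM). Of 5 mast cell markers, Kit, which is not particular to mast cells, was lower with LPS, at 10.05 to 13.5 CPM against 18.4 to 79.9 CPM, and the other 4 had at most 8 counts in a library. In bulk RNA, fewer cells of a type and less RNA per cell cannot be told apart, and the part of these other cell types in the values below was not tested.

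Of the 9 genes, 8 passed the filter on low counts and 4 of these were called higher with LPS, namely Jak2, Ifnar2, Ifngr2 and Jak1, against 9.09% of all 15226 genes tested. None was called lower, against 6.71% of all genes, and because all 8 estimates were positive the count lower is 0 at an unadjusted p under 0.05 too, and 0 with DESeq2 and with limma-voom. The median log2 fold change of the 8 genes was 0.61, beside -0.02 for all genes tested. For 6 of the 8, every LPS culture lay above every control culture, which held for 19.3% of all genes. Cultures with the same number deviated together, and with the replicate number as a block 6 of the 8 were called higher, Ifnar1 and Tyk2 joining the other 4, against 15.4% of all genes. Without both libraries numbered 3, an alternative added after the data had been seen, 7 of the 8 were called, against 22.6% of 15466 genes. Without control 2 the count called was 2, against 2.44% of 15564 genes. Jak3 was not called in any setting tried, and neither was Ifnb1, which was tested only without the filter.

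**Figure D1:**
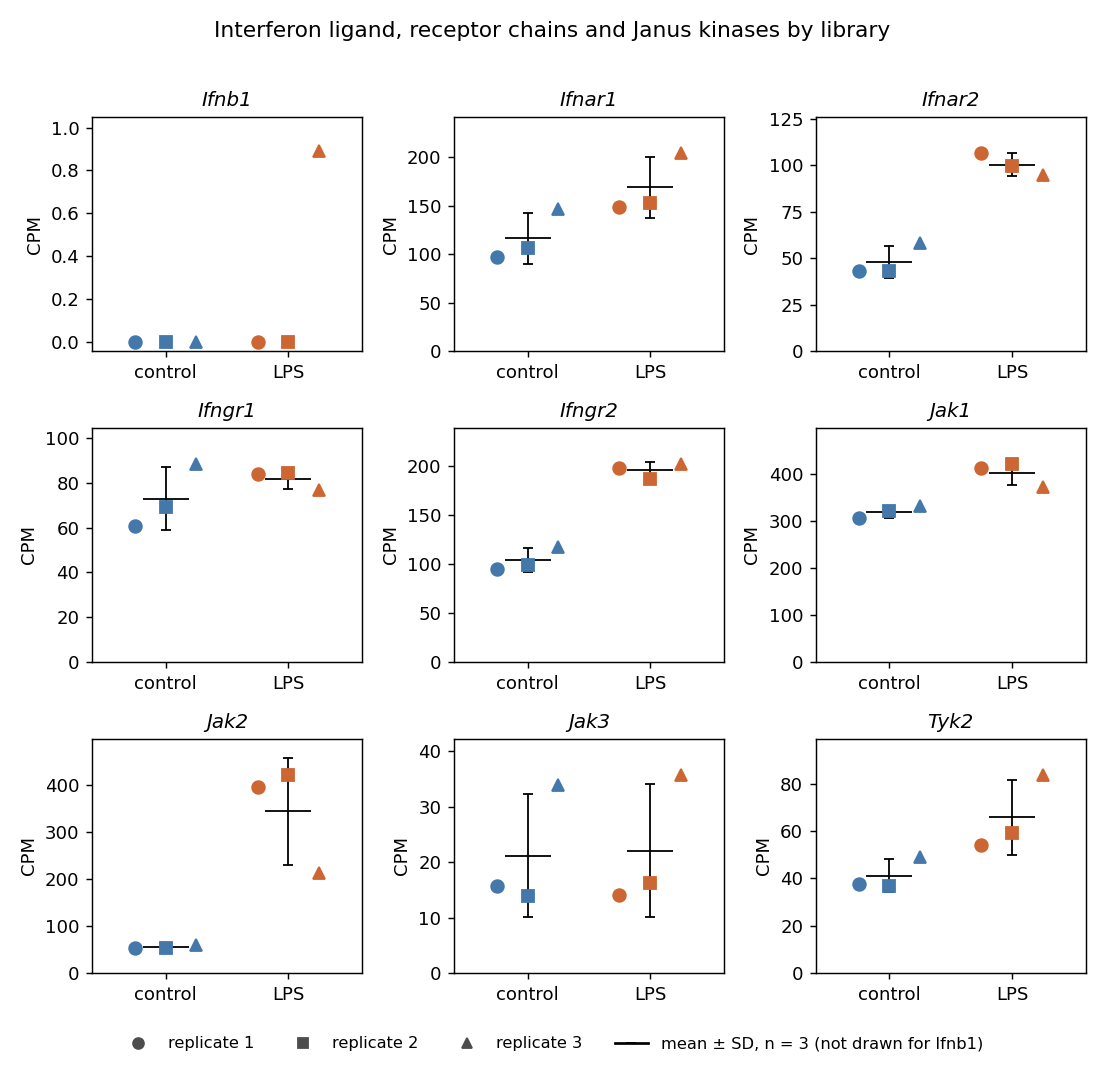
Level of each of the 9 genes in CPM (vertical axis, linear) in the 3 control and 3 LPS cultures, with the replicate number given by the symbol and the black line and bars showing the mean ± SD (n = 3). Jak2, Ifnar2, Ifngr2, Jak1, Ifnar1 and Tyk2 show no overlap between the groups, while Ifnb1 has a value above 0 in LPS 3 alone.

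In the genome, 3 of the 4 receptor genes among the members lie near each other. On GRCm38, in the GENCODE M21 annotation, Ifnar2 (chr16:91372783-91405589), Il10rb (chr16:91406164-91425834), Ifnar1 (chr16:91485238-91507441) and Ifngr2 (chr16:91547072-91565623) follow each other on the plus strand. Ifngr1 lies at chr10:19591949-19610229 on the plus strand. The ligand gene Ifnb1 lies at chr4:88522025-88522774 on the minus strand, and Jak1 lies on the same chromosome and strand at chr4:101152367-101265282. Jak2 is at chr19:29251828-29313080 (plus strand), Jak3 at chr8:71676296-71690575 (plus strand) and Tyk2 at chr9:21104068-21131243 (minus strand).

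Promoter windows of all 9 genes were found in the RefSeq table for GRCm38.p6, from 250 bases before to 50 bases after the RefSeq start, and were searched on both strands for 4 motifs. These were the interferon-stimulated response element (ISRE, GAAANNGAA, the element through which type I interferons act), the gamma-activated site (GAS, TTCNNNGAA, bound by STAT dimers), the IRF element (AANNGAAA) and the κB site of NF-κB. An ISRE match was present in 8.56% of all 32851 windows, a GAS match in 8.3%, an IRF element in 23.9% and a κB match in 8.46%. The letters of the ISRE and the IRF element can overlap. The 250 bases before the start are shown for the ligand gene, which holds the most matches of the 9, and for the 3 members with the largest fold changes, with every match in capitals.

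Ifnb1, chr4:88522795-88523044, minus strand: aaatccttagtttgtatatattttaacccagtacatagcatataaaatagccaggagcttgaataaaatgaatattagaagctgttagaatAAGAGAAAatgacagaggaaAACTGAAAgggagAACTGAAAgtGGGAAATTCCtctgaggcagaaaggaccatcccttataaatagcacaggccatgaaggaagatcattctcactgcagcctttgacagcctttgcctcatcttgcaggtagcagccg
Ifnar2, chr16:91372533-91372782, plus strand: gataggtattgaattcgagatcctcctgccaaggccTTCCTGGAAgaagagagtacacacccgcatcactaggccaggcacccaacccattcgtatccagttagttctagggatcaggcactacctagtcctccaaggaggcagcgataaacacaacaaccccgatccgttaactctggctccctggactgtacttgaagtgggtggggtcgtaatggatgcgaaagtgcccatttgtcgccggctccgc
Ifngr2, chr16:91546809-91547058, plus strand: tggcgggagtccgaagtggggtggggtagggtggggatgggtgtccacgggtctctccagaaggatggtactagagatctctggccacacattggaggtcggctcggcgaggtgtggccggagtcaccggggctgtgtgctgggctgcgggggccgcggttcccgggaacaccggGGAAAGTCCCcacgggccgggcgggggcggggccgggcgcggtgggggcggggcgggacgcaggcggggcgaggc
Jak2, chr19:29251553-29251802, plus strand: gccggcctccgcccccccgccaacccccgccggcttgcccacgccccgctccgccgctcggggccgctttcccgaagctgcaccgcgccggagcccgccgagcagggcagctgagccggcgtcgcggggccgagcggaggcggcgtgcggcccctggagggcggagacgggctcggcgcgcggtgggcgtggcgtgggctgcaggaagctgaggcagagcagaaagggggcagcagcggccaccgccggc

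The capitals mark, in Ifnb1, 3 IRF elements starting at -159, -139 and -126 and a κB match at -116, counted from the start. In Ifnar2 they mark a GAS match at -214, and in Ifngr2 a κB match on the other strand at -75. The window of Jak2, the member with the largest fold change, held 0 matches to the 4 motifs and was 81% G or C, beside a median of 52.7% over all windows. Of the other members, Ifnar1 had a GAS match at -5 and Jak3 an ISRE match at -143, while the windows of Jak1, Ifngr1 and Tyk2 held 0 matches. A match is a description of the letters only.

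The ligand was barely detected. Ifnb1 had 0 counts in all 3 controls and in LPS 1 and LPS 2, and 17 counts in LPS 3, or 0.89 CPM (exact Poisson 95% interval 0.518 to 1.42 CPM). The 1 library with Ifnb1 counts was also the library with the highest summed macrophage markers. By the same interval, a count of 0 allowed up to 0.182 CPM in LPS 1 and 0.206 CPM in LPS 2, so that LPS 3 lay above the other LPS cultures beyond counting error. The gene did not pass the filter on low counts, and without the filter its adjusted p was 0.329 in the edgeR test. The 20 other interferon ligand genes examined (alpha, epsilon, kappa, zeta, gamma and lambda) had 8 counts in total over all 6 libraries, and 17 of them were at 0 everywhere. The 3 detected were Ifna4, with 1 count in LPS 1, Ifna6, with 1 count in LPS 3, and Ifnz, with 2 and 1 counts in controls 1 and 3 and 3 counts in LPS 2. The gene of interferon γ was among those at 0, as were Ifnab and 11 of the 13 numbered alpha genes. Of the cells known for interferon γ, the T and NK cell markers summed to 0.398 to 1.33 CPM, with Cd3e, Cd3g, Cd3d and Ncr1 at 0 in every library. Most of the sum came from Lck, at 0.519 ± 0.283 CPM in controls and 1.13 ± 0.225 CPM with LPS. Lck was higher without overlap but not called (adjusted p = 0.164, edgeR).

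The chains of the type I receptor differed in how clearly they moved. Ifnar2, which encodes the chain that binds interferon with the higher affinity, was at 43.1, 43.0 and 58.1 CPM in controls 1, 2 and 3 and at 107, 99.5 and 94.5 CPM in LPS 1, 2 and 3. Each LPS culture lay well above each control, and the LPS cultures were close to each other. The mean rose from 48.1 ± 8.66 to 100 ± 6.19 CPM, a 2.09-fold difference (log2 fold change 1.06, SE 0.14, adjusted p = 0.00834, edgeR). The call was lost without control 2 (adjusted p = 0.0533, the highest of 15 alternatives, from 3.55e-08), where the log2 fold change was 0.99. Ifnar2 shares 315 exon bases with the gene model Gm21970 on the same strand, which had 1 count in all libraries together.

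Ifnar1, the chain that carries TYK2, was at 96.7, 106 and 146 CPM in the controls and at 149, 153 and 205 CPM in the LPS cultures. Within both groups the third culture was highest, and the lowest LPS culture was barely above the highest control. The means were 116 ± 26.4 and 169 ± 31.1 CPM, and the log2 fold change of 0.54 (SE 0.2) was not called (adjusted p = 0.132, edgeR). Between cultures of the same number the log2 difference was 0.62, 0.53 and 0.48. With the replicate number as a block the change was called, at 0.55 (SE 0.06, adjusted p = 0.00598, edgeR), and over the alternatives the adjusted p ran from 0.000579 to 0.327.

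Of the chains of the interferon γ receptor, Ifngr2 was called and Ifngr1 was not. Ifngr2, which brings JAK2 to the receptor, was at 94.4, 99.1 and 117 CPM in the controls and at 197, 186 and 202 CPM in the LPS cultures. The LPS values lay far above the controls and close to each other. The mean rose 1.88-fold, from 104 ± 12.2 to 195 ± 8.3 CPM (log2 fold change 0.91, SE 0.1, adjusted p = 0.00505, edgeR), and the call held in all 15 alternatives, with adjusted p from 5.71e-11 to 0.0427.

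Ifngr1, the chain that binds interferon γ first, was at 60.9, 69.4 and 88.5 CPM in the controls and at 83.9, 84.2 and 76.6 CPM in the LPS cultures. The groups overlapped, because control 3 lay above every LPS culture. The log2 fold change was 0.16 (SE 0.15, adjusted p = 0.504, edgeR), and the differences within numbers 1, 2 and 3 were 0.46, 0.28 and -0.21. Without both libraries numbered 3 it was 0.39 and called (adjusted p = 0.00651, with 0.00651 to 0.959 over the alternatives).

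Among the kinases, Jak2 changed by far the most. Jak2, which serves IFNGR2 and many cytokine and growth factor receptors, was at 52.2, 52.3 and 59.6 CPM in the controls and at 397, 422 and 214 CPM in LPS 1, 2 and 3. The controls agreed closely, and LPS 3 lay between the controls and the other LPS cultures. The mean was 54.7 ± 4.22 CPM in controls and 344 ± 114 CPM with LPS, a 6.3-fold fitted difference (log2 fold change 2.65, SE 0.28, adjusted p = 0.00371, edgeR). The call held in all 15 alternatives, with log2 fold changes from 2.48 to 2.99. The differences within numbers 1, 2 and 3 were 2.93, 3.01 and 1.84.

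Jak1, the kinase of IFNAR2 and IFNGR1, was at 305, 321 and 331 CPM in the controls and at 414, 422 and 373 CPM in the LPS cultures. All LPS cultures were above all controls by a small margin. The mean rose 1.26-fold, from 319 ± 12.9 to 403 ± 26.2 CPM (log2 fold change 0.34, SE 0.08, adjusted p = 0.0477, edgeR). This call sat at the threshold and was lost in 8 of 15 alternatives, with adjusted p from 0.000952 to 0.209. The 8 were the leaving out of any 1 culture other than LPS 3, scaling by upper-quartile factors or by library size alone, and the absence of a filter.

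Tyk2, the kinase of IFNAR1, was at 37.5, 36.8 and 49.1 CPM in the controls and at 54.4, 59.1 and 84.0 CPM in the LPS cultures. The groups did not overlap, and the third culture was highest in both. The log2 fold change of 0.68 (SE 0.2) was not called (adjusted p = 0.0786, edgeR), and with the replicate number as a block it was called at 0.66 (SE 0.07, adjusted p = 0.00617, edgeR). The differences within numbers 1, 2 and 3 were 0.53, 0.68 and 0.77, and over the alternatives the adjusted p ran from 0.000746 to 0.232. Tyk2 shares 554 exon bases with the antisense transcript 1700084C06Rik, which had 0, 4 and 16 counts in the controls and 2, 5 and 46 in the LPS cultures. The strand setting of the counting was not given in the sources used here.

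Jak3 was at 15.7, 13.9 and 33.9 CPM in the controls and at 14.03, 16.2 and 35.8 CPM in the LPS cultures. The level followed the number of the culture and not the treatment, with the third culture of each group above the other cultures of both groups. The means were 21.2 ± 11.1 and 22.02 ± 12 CPM (log2 fold change 0.06, SE 0.5, adjusted p = 0.953, edgeR), and the sign turned in 5 of 15 alternatives (upper-quartile factors, library size alone, and without control 1, control 2 or LPS 3). Jak3 shares 404 exon bases with Insl3 on the same strand, which had 3 to 9 counts per library.

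**Figure D2:**
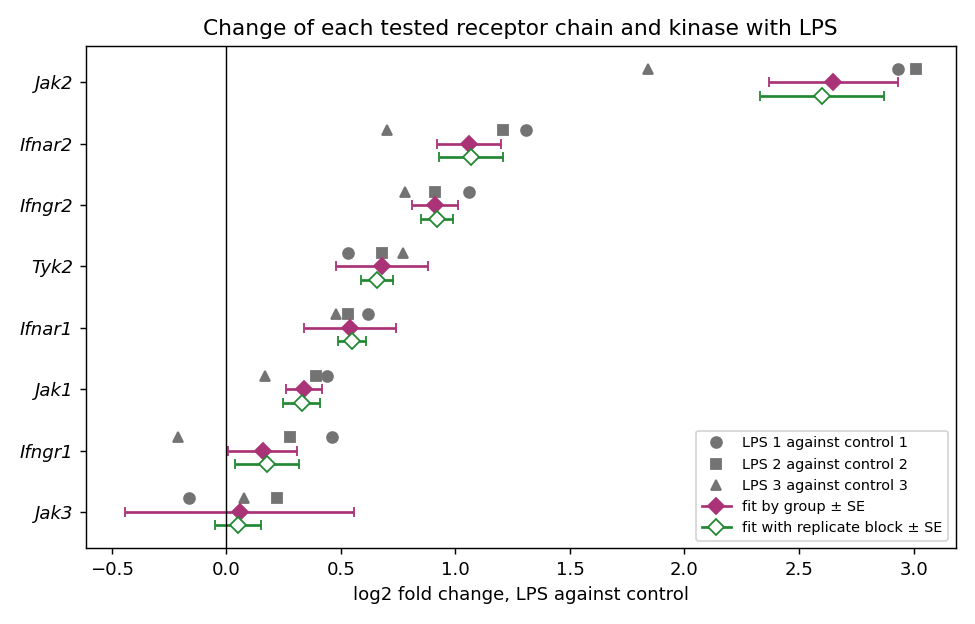
Log2 fold change of LPS against control (horizontal axis) for the 8 tested genes, with the difference within each replicate number in grey, and the fits by group and with the replicate block as diamonds with bars of 1 SE. The differences within numbers lie between 0.48 and 0.62 for Ifnar1 and between 1.84 and 3.01 for Jak2, and for Ifngr1 and Jak3 they fall on both sides of 0.

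The levels of several members were set beside those of the macrophage markers. All 8 tested members were highest in control 3 among the controls, and 4 of the 8 were highest in LPS 3 among the LPS cultures. The share of all genes with the same order was not counted, so that these counts are not a trait of the members. Ptprc, the pan-leukocyte antigen CD45, was at 47.8, 69.0 and 141 CPM in the controls and at 69.8, 97.5 and 328 CPM in the LPS cultures. Csf1r, the receptor of macrophage growth factors, was at 118, 174 and 551 CPM and at 127, 161 and 844 CPM. Adgre1, which encodes F4/80, was at 159, 229 and 472 CPM and at 952, 1261 and 3700 CPM, higher in every LPS culture than in any control. Adgre1 was the only 1 of the 12 macrophage markers called (adjusted p = 0.0452, edgeR). Of the others, Aif1 and Cd14 were also higher without overlap, Mrc1 was lower without overlap, at 9.29, 10.4 and 131 CPM with LPS against 197, 331 and 753 CPM, and 8 overlapped between groups. Among these 8, Cd68 was at 238, 323 and 689 CPM in the controls and at 134, 163 and 407 CPM with LPS, and Cx3cr1 at 3.14, 7.75 and 48.1 CPM and at 0.198, 0.167 and 9.53 CPM. The sum of the 12 was carried by Lyz2, at 2888, 3490 and 7978 CPM and at 2385, 3069 and 11480 CPM, so that similar sums in control and LPS cultures do not mean that each marker was similar. Jak3, Tyk2, Ifnar1 and Ifngr2 were highest in LPS 3, as Ptprc, Csf1r and Adgre1 were. Ifnar2, Jak1, Jak2 and Ifngr1 were lowest in LPS 3 among the LPS cultures, where those markers were highest. The part of macrophage RNA in the values of the members was not tested.

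**Figure D3:**
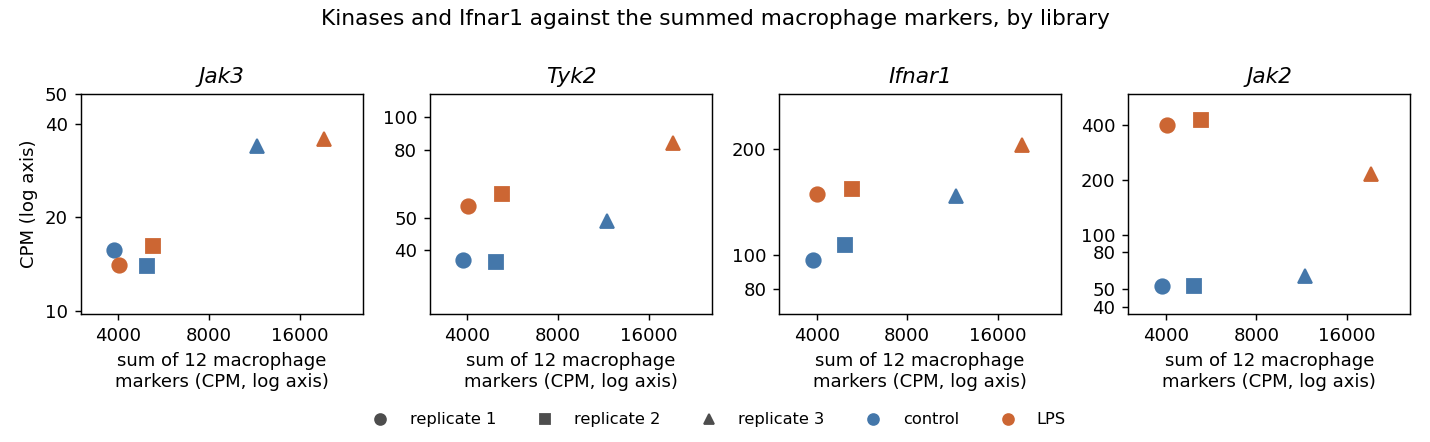
Level of Jak3, Tyk2, Ifnar1 and Jak2 in CPM (vertical log axis) against the summed level of 12 macrophage markers in CPM (horizontal log axis), each point being 1 library. The libraries numbered 3 lie at 11590 and 19240 CPM of the marker sum, where Jak3 is at 33.9 and 35.8 CPM, and Jak2 in LPS 3 lies below LPS 1 and LPS 2.

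To compare levels between genes, CPM was divided by the length of all exons of a gene in kilobases. In controls the order of levels, in CPM per kilobase, was Jak1 at 44.2 ± 1.79, Ifngr2 at 27.5 ± 3.23, Ifngr1 at 25.6 ± 4.98, Ifnar1 at 19.6 ± 4.44, Ifnar2 at 14.4 ± 2.6, Jak2 at 10.9 ± 0.839, Tyk2 at 6.0 ± 1.01 and Jak3 at 3.96 ± 2.07. The neighbours Ifngr2 and Ifngr1, Ifngr1 and Ifnar1, Ifnar1 and Ifnar2, and Tyk2 and Jak3 overlapped between libraries, and the other neighbours did not. Within each control library, by this length, the overlapping neighbours kept the same order, with Ifngr2 and Ifngr1 almost equal in control 3 (31.2 and 31.1). With LPS, by the same length, Jak2 had the highest mean level at 68.4 ± 22.6 CPM per kilobase, followed by Jak1 at 55.7 ± 3.62 and Ifngr2 at 51.8 ± 2.2, and these 3 overlapped. Ifnar2 at 30.1 ± 1.86, Ifngr1 at 28.6 ± 1.51 and Ifnar1 at 28.5 ± 5.24 CPM per kilobase formed an overlapping middle, above Tyk2 at 9.58 ± 2.32 and Jak3 at 4.11 ± 2.24. The order depends on the length used: per kilobase of the longest transcript, the control levels were 65.1 for Jak1, 34.5 for Ifngr1, 29.8 for Ifnar1 and 8.53 for Tyk2, and Jak1 was above Jak2 in all 3 LPS cultures.

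The make-up of Janus kinase mRNA differed between the groups, without overlap for Jak1 and Jak2. Of the summed level per kilobase of the 4 kinases, Jak2 took 17.0%, 16.5% and 16.7% in the controls and 53.8%, 54.5% and 37.6% in LPS 1, 2 and 3. Jak1 took 69.2%, 70.8% and 64.4% in the controls and 39.0%, 37.9% and 45.7% in the LPS cultures. Jak2 thus held the larger share in LPS 1 and LPS 2, and Jak1 in LPS 3. Tyk2 took 9.19 ± 0.789% and 7.27 ± 3.08%, and Jak3 5.95 ± 2.59% and 3.23 ± 2.33%. With the longest transcript as length the mean share of Jak2 went from 12.1 ± 0.185% to 39.6 ± 8.88% and that of Jak1 from 72.7 ± 3.35% to 48.7 ± 3.37%, so that Jak1 kept the larger mean share with LPS.

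**Figure D4:**
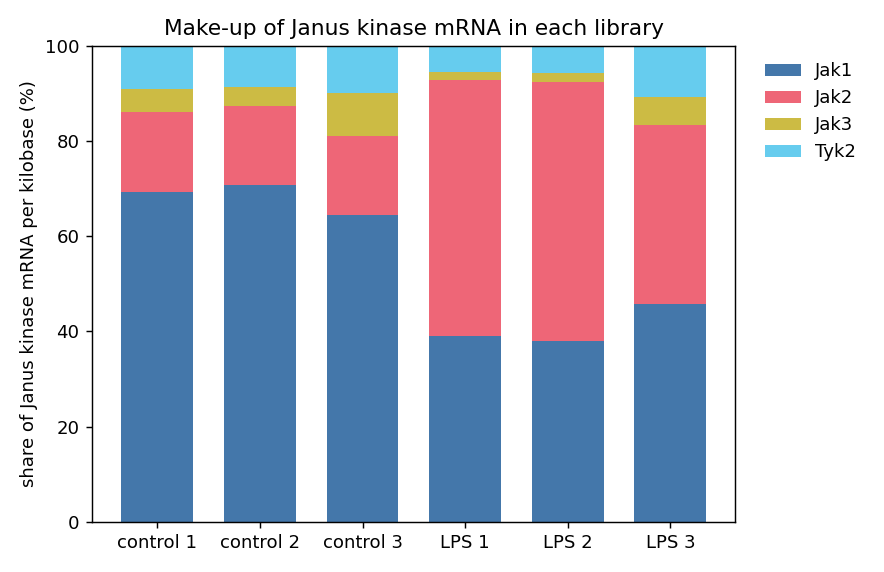
Share of each kinase in the summed level per kilobase of Jak1, Jak2, Jak3 and Tyk2 (vertical axis, %), 1 bar per library. Jak2 fills 16.5% to 17.0% of the bar in controls and 37.6% to 54.5% with LPS.

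Partners within a receptor were then compared as a ratio of levels per kilobase of all exons. The length used sets the size of a ratio and its side of 1, and does not alter how it differs between libraries. Ifnar2 over Ifnar1 was 0.796, 0.722 and 0.708 in the controls and 1.28, 1.16 and 0.823 in LPS 1, 2 and 3. Ifngr2 over Ifngr1 was 1.17, 1.08 and 1.0 in the controls and 1.78, 1.67 and 2.0 with LPS. Jak2 over Jak1 was 0.246, 0.234 and 0.259 against 1.38, 1.44 and 0.823. For these 3 ratios the groups did not overlap, and the two-sided exact permutation test gave p = 0.1, the smallest that 3 against 3 cultures allow (0.133 after adjustment over 4 ratios). Tyk2 over Jak1 was 0.129, 0.121 and 0.156 in the controls and 0.138, 0.147 and 0.237 with LPS, which overlapped between groups (exact permutation p = 0.3), although the LPS culture was above the control of its own number in all 3 pairs. These tests did not use the pairing of the numbers.

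Of the other interferon receptor chains, Ifnlr1, which binds lambda interferons, was at 2.80, 2.70 and 3.47 CPM in the controls and at 1.38, 1.17 and 2.36 CPM in the LPS cultures. Its log2 fold change of -0.87 (SE 0.31) was not called (adjusted p = 0.121, edgeR), and with the replicate number as a block it was called lower (-0.91, adjusted p = 0.0405, edgeR). Il10rb, the chain shared by the lambda interferon and interleukin 10 receptors, lies between Ifnar2 and Ifnar1 and was at 65.4, 78.2 and 112 CPM in the controls and at 58.8, 60.6 and 105 CPM with LPS. The groups overlapped (log2 fold change -0.19, SE 0.3, adjusted p = 0.711, edgeR). Of these 2 tested genes, 0 were called by edgeR, DESeq2 or limma-voom, and 1, Ifnlr1, had an unadjusted p under 0.05 in the edgeR test (0.0334).

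Downstream of the kinases, 3 of 8 signal transducers rose in the edgeR test (9.09% of all genes). With DESeq2, 5 were called higher (2079 of all 15226 genes), and with limma-voom 4 were (1250 of 15226). None was called lower by any of these, and 0 were lower at an unadjusted p under 0.05 in the edgeR test. Stat2, a transducer of type I interferon signals, went from 49.95 ± 5.98 to 394 ± 121 CPM (log2 fold change 2.98, SE 0.24, adjusted p = 0.00179, edgeR), and Irf9, its DNA-binding partner, from 28.5 ± 2.17 to 119 ± 0.697 CPM (2.07, SE 0.08, adjusted p = 0.000157, edgeR). Irf9 was almost equal in the LPS cultures, while Stat2 was highest in LPS 3. The log2 fold change was 0.34 for Stat3 (adjusted p = 0.0506), 0.45 for Stat5a (0.0674), 0.33 for Stat6 (0.154), 0.01 for Stat5b (0.943) and -0.3 for Stat4 (0.703), in the edgeR test. With the replicate number as a block, Stat3 (0.0229), Stat5a (0.0369) and Stat6 (0.0192) were called as well, which made 6 of 8, against 15.4% of all genes. The median log2 fold change of the list was 0.4.

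Of 18 inhibitors of Janus kinase signalling, 5 were called higher and 1 lower (9.09% and 6.71% of all genes), with a median log2 fold change of 0.13. Usp18, which detaches JAK1 from IFNAR2, rose from 2.30 ± 0.552 to 211 ± 61.2 CPM (6.52, SE 0.32, adjusted p = 3e-04, edgeR). Socs1, which inhibits JAK1, JAK2 and TYK2 directly, rose from 2.14 ± 0.258 to 18.3 ± 1.64 CPM (3.09, SE 0.15, adjusted p = 3e-04, edgeR), and Socs3 from 28.0 ± 3.02 to 153 ± 34.3 CPM (2.45, SE 0.18, adjusted p = 0.00136, edgeR). Socs6 fell by 0.51 on the log2 scale (SE 0.09, adjusted p = 0.0212, edgeR), a call lost without control 2, LPS 1 or LPS 2. The phosphatase gene Ptpn6 was at 32.5, 46.2 and 100 CPM in the controls and at 51.7, 70.6 and 258 CPM with LPS, with the third culture highest in each group, and it was not called (adjusted p = 0.36, edgeR). With the replicate number as a block it was called higher (log2 fold change 0.89, adjusted p = 0.0243, edgeR). Ptpn6 is named after its values were seen. With the replicate number as a block, 8 inhibitors were called higher and 2 lower, against 15.4% and 14.9% of all genes.

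The genes that lead to Ifnb1 were examined because the ligand itself was near 0. Of 21 genes between TLR4 or the nucleic acid sensors and the Ifnb1 promoter, 12 were called higher and 0 lower (9.09% and 6.71% of all genes), with a median log2 fold change of 0.66, and 0 were lower at an unadjusted p under 0.05 in the edgeR test, with DESeq2 or with limma-voom. Without control 2, 7 were called higher, against 2.44% of 15564 genes. Irf7, a transcription factor of interferon genes, rose from 4.56 ± 0.551 to 638 ± 274 CPM (7.13, SE 0.39, adjusted p = 0.000417, edgeR). Zbp1, a nucleic acid sensor, rose from 0.552 ± 0.182 to 195 ± 54.2 CPM (8.44, SE 0.35, adjusted p = 0.000213, edgeR), and Ifih1, the RNA sensor MDA5, from 16.9 ± 1.66 to 178 ± 32.9 CPM (3.4, SE 0.17, adjusted p = 3e-04, edgeR). Tlr4, the LPS receptor, was at 92.9 ± 6.75 CPM in controls and at 94.3 ± 5.4 CPM with LPS (0.02, SE 0.09, adjusted p = 0.892, edgeR).

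All 27 tested of 28 interferon response genes were called higher (9.09% of all genes), with a median log2 fold change of 5.81. The 27 include Mx1, Gbp5 and Cxcl9, which had fewer than 10 counts in at least 1 control. With at least 10 counts required in every library, 24 were tested and 24 called higher, against 1204 of 13817 genes. Ciita, the 28th, had at most 8 counts in a library. Of the 27, 26 were called with DESeq2 (2079 of 15226 genes) and 26 with limma-voom (1250 of 15226). The count was 25 without control 1 (3.03% of all genes), 23 without control 2 (2.44%) and 26 without control 3 (1174 of 15605 genes). In every one of the 27, each LPS culture exceeded each control (19.3% of all genes). They were not level between LPS cultures: 21 were highest in LPS 3, 6 in LPS 2 and 0 in LPS 1, and the median ratio of LPS 3 to the mean of LPS 1 and LPS 2 was 1.45. Mx1, an antiviral GTPase, was at 20.9, 26.5 and 194 CPM in LPS 1, 2 and 3, against 0.212 to 0.289 CPM, or 5 to 7 counts, in controls (8.27, SE 1.31). Cxcl10, a chemokine, was at 838, 970 and 242 CPM in the LPS cultures and at 1.44, 1.15 and 0.413 CPM in the controls (9.41, SE 0.84, adjusted p = 0.00238, edgeR). Cxcl9, a chemokine known for its induction by interferon γ, was at 79.3, 89.3 and 25.5 CPM with LPS, with 1 count in control 1 and 0 in controls 2 and 3, so that no fold change is given. Mx1 and Cxcl9 passed the filter on low counts through the LPS cultures alone, and no p-value is given for them. Mx1 was thus highest, and both chemokines lowest, in the LPS culture with Ifnb1 counts and the lowest LPS level of Jak2.

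Finally, 34 further receptor chains that signal through Janus kinases were taken as a set beside the interferon receptors. Of 26 tested, 7 were called higher and 3 lower (9.09% and 6.71% of all genes), with a median log2 fold change of 0.53, and with the replicate block 14 were called higher (15.4% of all genes). Without control 1, 1 was called higher (3.03% of all genes), and without control 2 the counts were 0 higher and 0 lower (2.44% and 0.72% of all genes). Il2rg, the common γ chain to which JAK3 binds, was at 2.88, 3.19 and 6.61 CPM in the controls and at 29.6, 32.2 and 65.5 CPM with LPS (3.32, SE 0.48, adjusted p = 0.0112, edgeR). The third culture was highest in each group for Il2rg and for Jak3, whereas Il2rg alone of this pair differed between groups by the test. Il13ra1, a chain of the interleukin 4 and 13 receptor, rose from 34.0 ± 5.3 to 130 ± 39.8 CPM (1.93, SE 0.27, adjusted p = 0.0093, edgeR). Il23r, among the 7, had 0, 1 and 2 counts in the controls and was at 1.48, 2.01 and 13.9 CPM with LPS. It passed the filter on low counts through the LPS cultures alone, so that no p-value is given. With at least 10 counts required in every library, 6 of 24 of these receptors were called higher, against 1204 of 13817 genes. Il7r fell by 2.11 (SE 0.44, adjusted p = 0.0291, edgeR) and Il11ra1 fell by 0.39 (SE 0.1, adjusted p = 0.0447, edgeR) on the log2 scale.

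**Figure D5:**
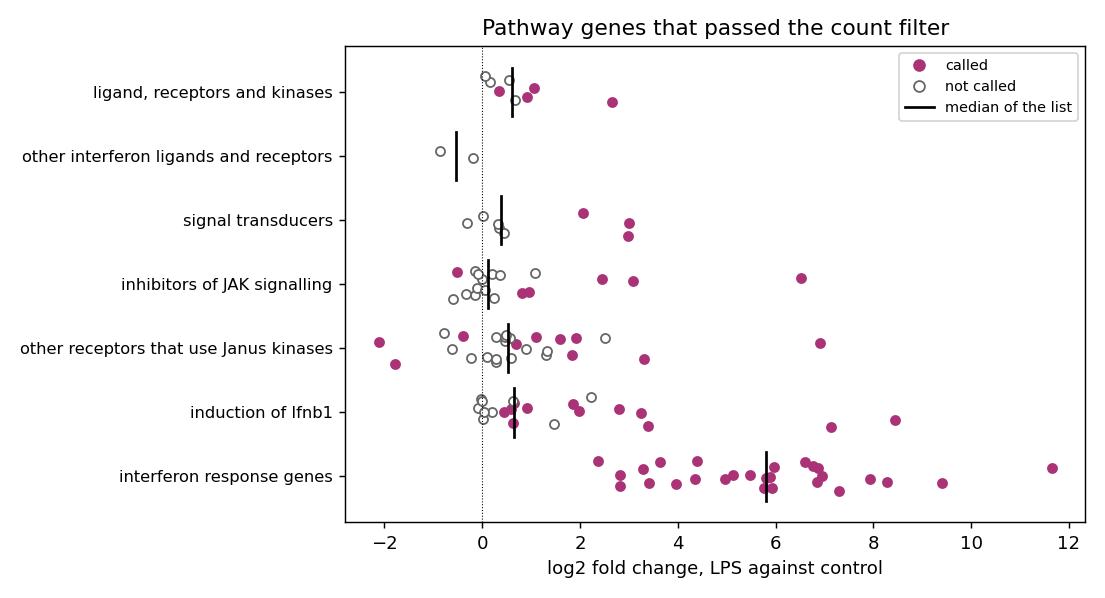
Log2 fold change of LPS against control (horizontal axis) for each gene that passed the count filter, by list, with filled points for genes called at an adjusted p under 0.05 (edgeR) and a black bar for the median of the list. The interferon response genes lie furthest to the right, with a median of 5.81, and the ligand, receptor and kinase genes have a median of 0.61.

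The genes whose log2 CPM over the 6 libraries followed each called member most closely were sought among 11832 genes with at least 5 CPM in a group. For Jak2 these were Gapdh (Pearson r = 0.9995), Atg9a (0.9992) and Rsbn1 (0.9992). For Ifnar2 they were Rpl36al (0.9988), Tgif1 (0.9982) and Bdkrb1 (0.9981), and for Ifngr2 they were Tlr2 (0.9977), Ino80 (0.9977) and Grwd1 (0.9974). For Jak1 they were Abcc1 (0.9989), Il13ra1 (0.9971) and Arhgef3 (0.9967). These are descriptions over 6 libraries that share the same groups and depths.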

How the data were processed

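Poly(A) RNA of 3 control and 3 LPS cultures was sequenced from stranded libraries. The files deposited by the authors hold raw read counts for each gene, with 1 file for each library. Per the labels and the study's methods, the authors trimmed and filtered the reads (cutadapt 1.15), removed contaminants (Bowtie2 2.3.3.1), aligned to GRCm38 with STAR 2.5.2b and sorted with SAMtools 1.5. The submitters' processing notes list featureCounts 1.5.3. Its strand setting and its handling of reads with several alignments were not given in the sources used here. A series table of the same counts was not used. No pair of libraries was identical.

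Genes with low counts were removed (filterByExpr, minimum count 10, minimum total 15), which left 15226 of 46603. Counts were tested with the quasi-likelihood F-test of edgeR 4.0.16 in R 4.3.3, two-sided, with TMM factors of 0.917 to 1.08, the group alone in the model, and adjusted by Benjamini-Hochberg across the genes tested. The SE is the log2 fold change over the square root of F. CPM used TMM library sizes, and likeness used a prior count of 2. The edgeR, DESeq2, limma-voom and replicate-block fits were tested on simulated counts. Alternatives were other scaling factors, other filters, DESeq2 1.42.0, limma-voom (limma 3.58.1), the replicate number as a block, and leaving out each culture.

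The replicate numbers were taken to pair the cultures, since deviations from the group means correlated at 0.513, 0.334 and 0.613 within numbers 1, 2 and 3 over 15226 genes. Controls and LPS cultures numbered 1 and 2 also correlated across numbers (0.323 and 0.419), so that the block mainly sets apart number 3.

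The members and all gene lists were chosen with earlier results of these data known. Named genes were all 9 members, every tested gene of the other interferon receptors and signal transducers, and from each other list up to 3 called genes in each direction whose groups did not overlap and whose higher group reached 5 CPM. Some genes in the lists are not reported here singly. Sequences and motif positions come from RefSeq windows for GRCm38.p6, and gene positions and lengths from GENCODE M21.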

Additional observations from a re-analysis of the deposited data

How the results depend on the processing

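Of 120 fold changes of the 8 tested members under 15 alternatives, 99 kept their direction and their side of the threshold, 7 gained a call, 9 lost one and 5 turned sign. The cause of these changes was not tested. Jak2 and Ifngr2 were called in all 15. Jak1 lost its call with upper-quartile factors (0.23), with library size alone (0.18) and with no filter (0.32), and leaving out each culture gave 0.3 to 0.39. The call of Ifnar2 was lost without control 2 (0.99, within a range of 0.99 to 1.24 on leaving out each culture). Tyk2 was called with DESeq2 (0.69) and with the replicate block (0.66), and Ifnar1 with the replicate block (0.55) and without control 3 (0.75, the range being 0.37 to 0.75, adjusted p = 0.0496, edgeR). Jak3 turned to -0.06 with upper-quartile factors and to -0.1 with library size alone, and ranged from -0.49 to 0.59 on leaving out each culture. Without both libraries numbered 3, Ifnar1 (0.6), Ifngr1 (0.39) and Tyk2 (0.63) were called, and so were 7 of the 8 members.

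Upper-quartile factors and library size alone moved the median of all genes to -0.12 and -0.18, and the share of higher calls from 57.5% to 39.8% and 32.4%. The count of genes called higher, 1384, was 2079 with DESeq2, 2343 with the replicate block, 3498 without both libraries numbered 3 and 379 to 1964 on leaving out each culture. The count called lower, 1022, was 1589 with upper-quartile factors, 2054 with library size alone, 1673 with DESeq2, 2273 with the replicate block, 3159 without both libraries numbered 3 and 112 to 1426 on leaving out each culture. On leaving out each culture, the count of members called higher was 2 (without control 2) to 4. For the lists, the counts with the replicate block were 6 signal transducers higher, 8 inhibitors higher and 2 lower, 14 other receptors higher and 1 other interferon receptor lower. Without both libraries numbered 3 these counts were 6, 9, 3, 16 and 1, where 22.6% of 15466 genes were called higher and 3159 genes lower. DESeq2 called 5 signal transducers higher, both upper-quartile factors and library size alone called 2 inhibitors lower, and limma-voom called 1 other receptor lower. Leaving out each culture gave 7 to 14 genes of Ifnb1 induction higher, 0 to 10 other receptors higher and 0 to 3 lower, 0 to 2 inhibitors lower and 0 to 1 other interferon receptors lower. In the same fits, 379 to 1964 of all genes were called higher and 112 to 1426 lower, so that the list counts moved with the counts over all genes. Control 1, control 2, LPS 1 and LPS 2 were the cultures without which the counts over all genes dropped by over 1.5 times, and these counts, the other receptors and the Ifnb1 induction genes were lowest without control 2.

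The replicate block changed the calls of Ifnar1 and Tyk2 and of no other member. Depth limits Ifnb1 and the other ligands, whose counts of 0 allow up to 0.152 to 0.206 CPM (exact Poisson 95% bound).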
